A study of Mus musculus with 12 samples.

Results

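Autophagy genes were followed in 12 single-cell-derived clones of mouse granulocyte-monocyte progenitors, 6 wildtype and 6 Taz knockout. The set comprised 40 genes for the core machinery that builds autophagosomes, the cargo receptors, the TFEB family of transcription factors and the lysosome membrane proteins LAMP1 and LAMP2. They were selected by symbol, as members of these groups, out of 37583 gene identifiers in the count files. All 40 symbols matched a single identifier and all 40 passed the filter on low counts.

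The progenitors came from C57BL/6 fetal liver at embryonic day 15.5 and carried a retroviral ER-Hoxb8 fusion, an estrogen receptor-Hoxb8 protein that holds myeloid progenitors in an immature, dividing state while estradiol is present. Culture was in RPMI medium with 0.5 µM estradiol and with stem cell factor at roughly 50 ng/ml for all 12 clones, so both genotypes share the transgene, the hormone and the growth factor. The knockout clones lack Tafazzin, the mitochondrial acyltransferase encoded by Taz that remodels cardiolipin, and the labels do not describe the allele. Each library is a bulk RNA sample of 1 clone. The wildtype clones have the names 1A to 1C and 2D to 2F, and the knockout clones 3G to 3I and 4J to 4L. What the leading number means is not stated, nor is the number of embryos. Should it mark an embryo or a parent culture, the 3 clones under a number would share their source. The tests over 12 clones would then give p-values that are too low and intervals that are too narrow.

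Macroautophagy encloses cytoplasm, protein aggregates or damaged organelles, mitochondria among them, in a double membrane that then fuses with lysosomes. The ULK1 kinase complex starts the process, a class III phosphatidylinositol 3-kinase complex marks the nascent membrane, and a pair of ubiquitin-like conjugation reactions attaches LC3 and GABARAP proteins to it. Much of this control acts on proteins: mTORC1 phosphorylates ULK1, ATG13 and TFEB when nutrients are plentiful. Transcription also contributes, through TFEB and its relatives at lysosomal and autophagy promoters and through ATF4 and CHOP, which are known to induce several autophagy genes under amino acid or endoplasmic reticulum stress.

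The libraries held between 18970252 and 27431544 counts in genes, with a mean of 24969226 in wildtype and 21197723 in knockout. Levels are given as TMM-scaled CPM, the number of counts for a gene in a library scaled to the same size as the others. Taz itself lay between 37.0 and 43.9 CPM in wildtype clones and between 2.21 and 4.07 CPM in knockout clones. The summed level of 6 progenitor markers (Kit, Cd34, Mpo, Cebpa, Spi1 and Fcgr3) ran from 9398 to 15710 CPM in wildtype and from 9063 to 15460 CPM in knockout, and 0 of the 6 passed the test. Clone 2D stood apart with 1593 CPM over 10 mature neutrophil markers, against a wildtype median of 98.8 CPM and at most 181.5 CPM in a knockout clone. Of the 8 mature neutrophil markers tested, 1 was called lower in knockout, as was 1 of 4 megakaryocyte markers, beside 3.94% of all genes. Clone 3G had 140.9 CPM over 4 fetal hepatocyte markers, of which Alb made up 122 CPM, against 0.841 CPM at most in a wildtype clone. In such bulk libraries, fewer cells of a type and less RNA per cell cannot be told apart.

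Most autophagy transcripts were at nearly the same level in knockout and wildtype clones. Of the 40 genes, 1 was lower in knockout clones (Pik3r4) and 0 were higher at an adjusted p under 0.05 by edgeR's quasi-likelihood test, and 39 did not pass. Over all 11819 genes tested, 7.94% were called, 3.99% higher and 3.94% lower. At an unadjusted p under 0.05, 5 of the 40 were reached (1 higher and 4 lower), against 23.7% of all genes. DESeq2 called 0 higher and 2 lower among the 40, beside 13.7% of all genes called by DESeq2 in either direction. The median log2 fold change of the 40 genes was 0.001, beside -0.007 over all genes, and the median absolute change was 0.089, beside 0.114. Of the 40 genes, 20 had a positive and 20 a negative sign.

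The differences were small and measured with fair precision. The log2 fold change was under 0.2 in size for 36 genes and under 0.1 for 22. The extremes were -0.20 for Calcoco1 and 0.33 for Map1lc3a. The 95% interval of the fold change stayed within 1.25-fold of no change, in either direction, for 28 of the 40 genes, within 1.5-fold for 35 and within 2-fold for all 40. A rise of 1.25-fold or more lay outside the interval for 33 genes. Counts per clone ran from 44 for Map1lc3a to 14907 for Tax1bp1. Clone values of the genotypes overlapped in 39 of the 40 genes. In the remaining gene, Pik3r4, the knockout clones were lower. Over all genes tested, values did not overlap in 5.38%, with 2.54% higher and 2.84% lower.

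**Figure D1:**
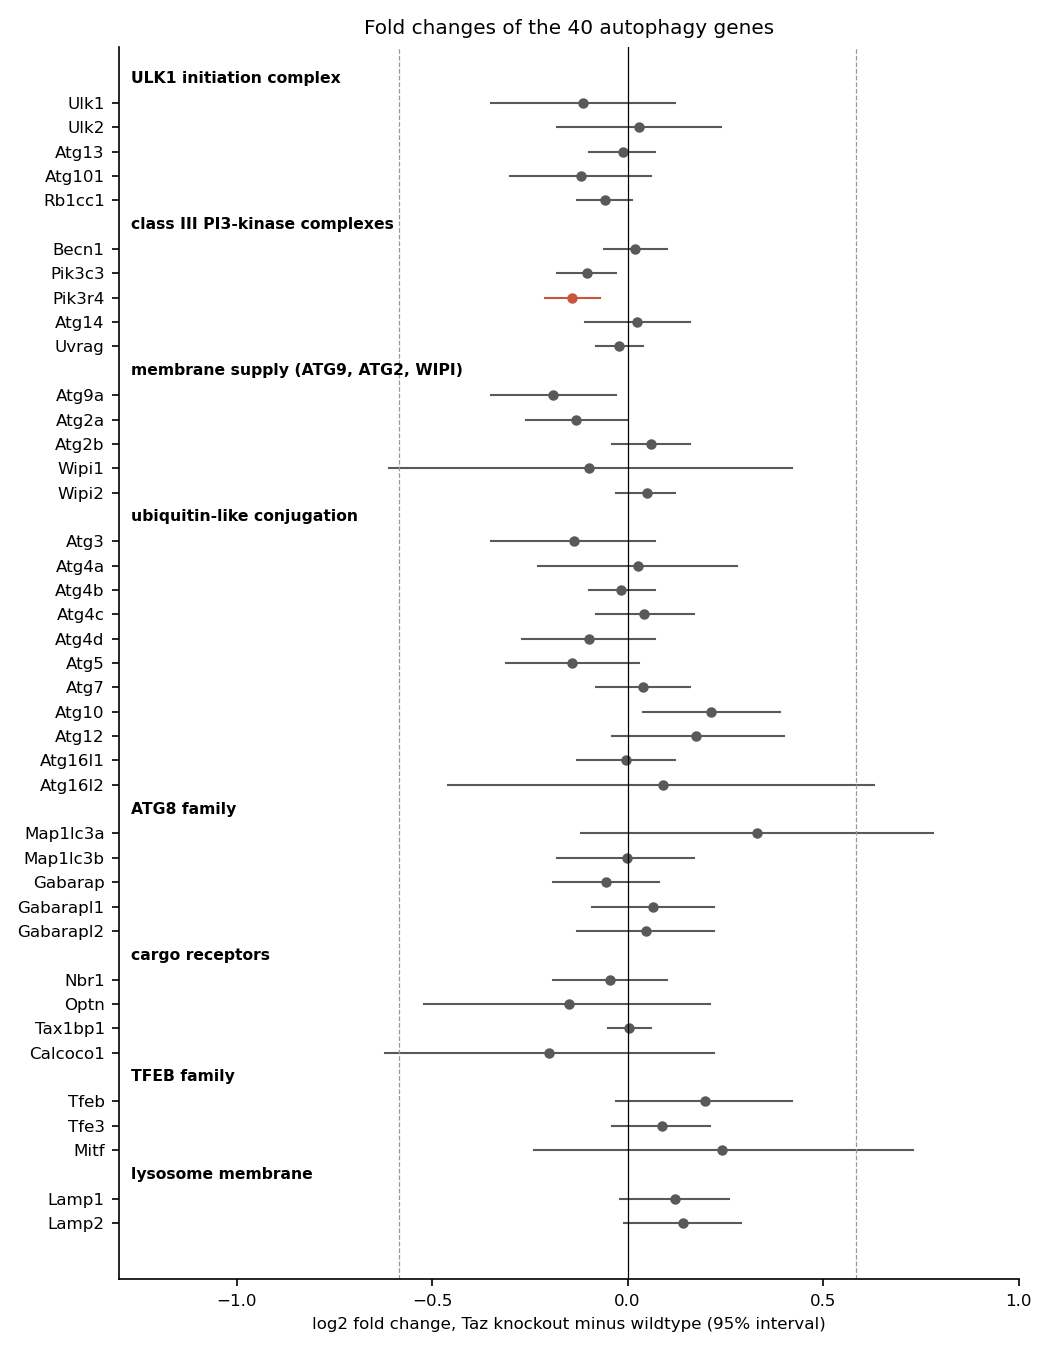
Log2 fold change of each of the 40 autophagy genes (knockout minus wildtype, x axis) with its 95% interval from edgeR's fit, grouped by role; the dashed lines mark a 1.5-fold change. Pik3r4, at -0.14, is the called gene (red), and the widest intervals belong to Wipi1, Atg16l2, Map1lc3a, Calcoco1 and Mitf.

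The ULK1 complex starts autophagosome formation. It joins the kinase ULK1 or ULK2 with the adaptor ATG13, its stabilizing partner ATG101 and the scaffold FIP200, the product of Rb1cc1. None of its 5 genes passed the test by edgeR, and 0 had an unadjusted p under 0.05. Ulk1 ranged from 59.0 to 91.2 CPM in wildtype clones (median 83.7) and from 66.0 to 83.6 CPM in knockout clones (median 68.9). The 2 lowest values were those of wildtype clones 2D and 1A, and the knockout clones lay inside the wildtype range. Its mean was 77.5 CPM ± 13.0 (SD, n = 6) in wildtype and 71.5 CPM ± 6.60 (SD, n = 6) in knockout, a log2 fold change of -0.12 (SE 0.11, edgeR adjusted p = 0.563). That value was -0.06 without clone 1C and -0.18 without 2D. The other log2 fold changes were 0.03 for Ulk2, -0.01 for Atg13, -0.12 for Atg101 and -0.06 for Rb1cc1.

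The class III phosphatidylinositol 3-kinase held the called gene. Its core is the lipid kinase VPS34, encoded by Pik3c3, bound to the regulatory kinase-like subunit VPS15, encoded by Pik3r4, and to Beclin 1. ATG14 directs this core to nascent autophagosomes and UVRAG to endosomes. Pik3r4 (chromosome 9) ranged from 58.4 to 64.3 CPM in wildtype clones (median 61.9) and from 54.3 to 58.2 CPM in knockout clones (median 56.1). All 6 knockout clones lay below all 6 wildtype clones, with a gap of under 1 CPM between 4L and 2D. Its mean went from 62.0 CPM ± 2.10 (SD, n = 6) to 56.2 CPM ± 1.48 (n = 6), a fall of 9.42% (log2 fold change -0.14, SE 0.03, 95% interval -0.21 to -0.07, edgeR adjusted p = 0.0199). The call was held by a narrow margin: without knockout clone 4K the adjusted p was 0.05001, and in a fit without the filter on low counts 0.0503. When the 3 clones of each number were summed (2 against 2) the adjusted p was 0.121, with a log2 fold change of -0.14.

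Pik3c3 (chromosome 18), the catalytic partner of Pik3r4, ranged from 90.0 to 100.3 CPM in wildtype clones (median 96.5) and from 85.4 to 93.6 CPM in knockout clones (median 89.4). Only 2D among the wildtype clones reached into the knockout range. The log2 fold change was -0.11 (SE 0.03, edgeR adjusted p = 0.0739), which missed the threshold. Pik3c3 passed in 4 of 22 alternatives. Among them were edgeR without clone 2D (adjusted p = 0.0300) and DESeq2 (adjusted p = 0.0289), which called 13.7% of all genes. It passed in 1 of the 12 edgeR fits without a single clone, with adjusted p up to 0.155 in the others. With the clones of each number summed, Pik3c3 had an edgeR adjusted p of 0.139. Becn1 ran from 85.6 to 96.2 CPM in wildtype (median 88.6) and from 86.9 to 95.2 CPM in knockout (median 90.8), and the knockout clones lay inside the wildtype range. For Becn1 the log2 fold change was 0.02 (SE 0.04, edgeR adjusted p = 0.819, 95% interval -0.06 to 0.10), and it ran from 0.001 to 0.04 when single clones were left out. The fold changes of Atg14 (0.02, SE 0.06) and Uvrag (-0.02, SE 0.03) were within their errors of 0, and the interval of Uvrag reached from -0.08 to 0.04.

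ATG9A is a scramblase on vesicles that seed the membrane, ATG2 proteins carry lipid into it from the endoplasmic reticulum, and WIPI proteins bind the phosphatidylinositol 3-phosphate that VPS34 makes. Among these 5 genes 0 passed the test by edgeR, while Atg9a and Atg2a had an unadjusted p under 0.05. Atg9a ranged from 50.7 to 65.6 CPM in wildtype (median 53.2) and from 43.5 to 53.4 CPM in knockout (median 47.0), and its highest value, in 1A, stood far from the others. The genotypes differed by a log2 fold change of -0.19 (SE 0.07, edgeR adjusted p = 0.142), and by -0.13 without 1A (adjusted p = 0.256). Atg2a ranged from 54.8 to 71.1 CPM in wildtype (median 65.9) and from 55.6 to 62.7 CPM in knockout (median 58.9). The lowest of all 12 values was that of wildtype clone 2D. For Atg2a this was -0.13 (SE 0.06, edgeR adjusted p = 0.206), and without 2D it was -0.17 and passed the test (adjusted p = 0.0363). The paralog Atg2b differed by 0.06 (SE 0.05) and Wipi2 by 0.05 (SE 0.03). Wipi1 varied most between clones in this group, from 24.2 CPM in 2D to 60.4 CPM in 2E within wildtype, and its log2 fold change of -0.10 had an SE of 0.24.

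**Figure D2:**
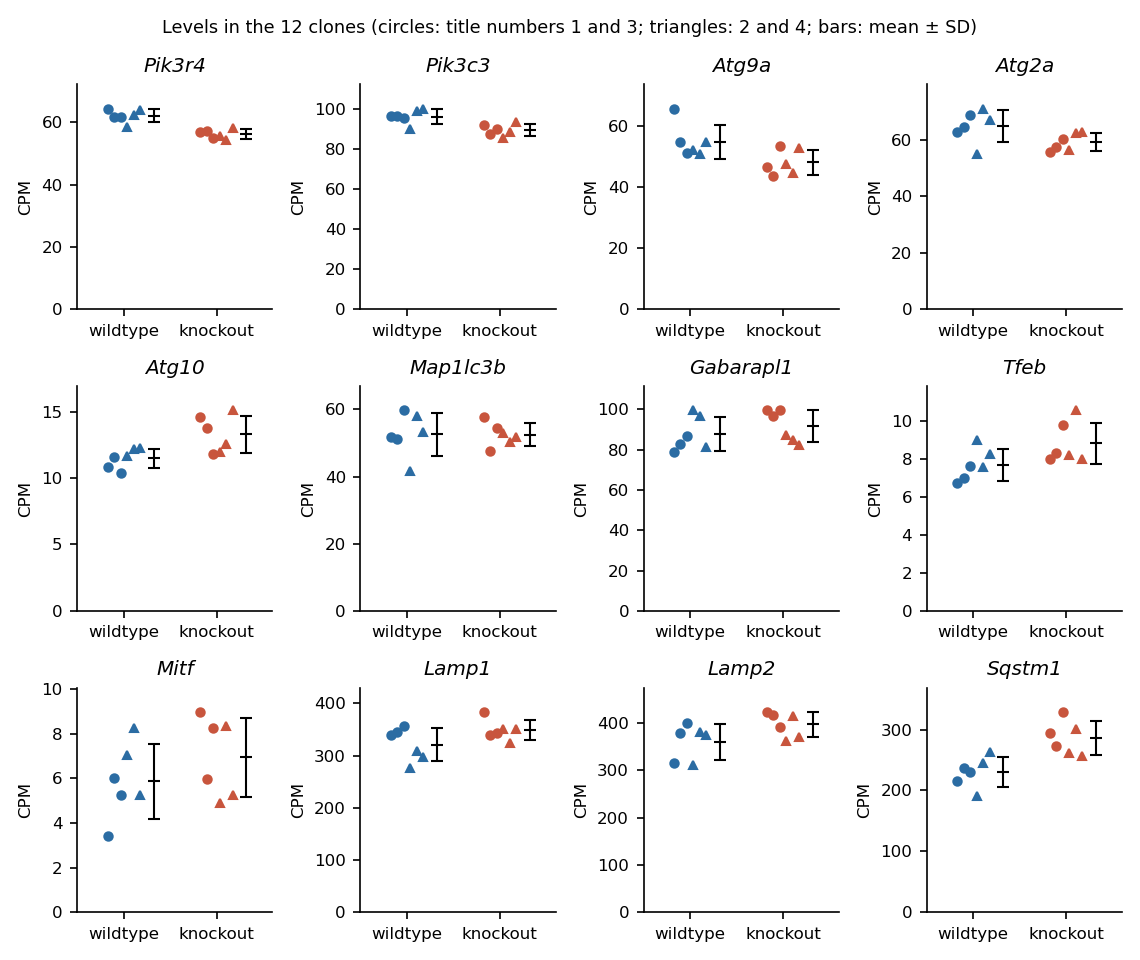
CPM (y axis) of 11 autophagy genes and of Sqstm1 in each of the 12 clones, with the mean ± SD of 6 clones beside the points; circles and triangles separate the numbers in the clone names. The knockout points of Pik3r4 lie below all wildtype points, and in the other panels the genotypes overlap.

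The conjugation machinery attaches ATG12 to ATG5, with ATG7 as the activating and ATG10 as the transferring enzyme, and then uses the ATG12-ATG5-ATG16L1 complex and ATG3 to couple LC3 and GABARAP proteins to phosphatidylethanolamine. ATG4 proteases prepare and recycle these proteins. Of the 11 genes 0 passed the test by edgeR, 1 had an unadjusted p under 0.05 (Atg10), and the median log2 fold change was 0.03. Atg10 ranged from 10.4 to 12.2 CPM in wildtype (median 11.6) and from 11.8 to 15.1 CPM in knockout (median 13.2). Knockout clones 3I and 4J lay inside the wildtype range and the other 4 above it. In edgeR's fit Atg10 differed by 0.21 on the log2 scale (SE 0.08, edgeR adjusted p = 0.135).

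Atg5 and Atg7 are the genes most often deleted to block autophagy in mice. Atg5 ranged from 39.8 to 53.9 CPM in wildtype (median 44.7) and from 37.9 to 44.1 CPM in knockout (median 41.9), and its 2 highest values were in wildtype clones 2D and 1A. The difference of -0.14 on the log2 scale (SE 0.08, edgeR adjusted p = 0.291) had an interval from -0.31 to 0.03 and was -0.09 without clone 2D. Atg7 ranged from 29.6 to 33.0 CPM in wildtype (median 30.2) and from 29.2 to 36.7 CPM in knockout (median 31.0). Its log2 fold change was 0.04 (SE 0.06, adjusted p = 0.730) and turned to -0.007 without clone 3G, whose 36.7 CPM was the highest value. Among the rest of the conjugation genes, log2 fold changes ran from -0.14 for Atg3 to 0.18 for Atg12. The ATG4 protease genes were close to 0 (0.03 for Atg4a, -0.02 for Atg4b, 0.04 for Atg4c and -0.10 for Atg4d). Atg16l2, the lowly expressed paralog of Atg16l1, had a wide interval of -0.46 to 0.63.

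The LC3 and GABARAP proteins, the mammalian ATG8 family, decorate the autophagosome and bind cargo receptors. None of the 5 genes passed the test by edgeR, and 0 had an unadjusted p under 0.05. Map1lc3b, the gene of the standard autophagy marker LC3B, ranged from 41.6 to 59.8 CPM in wildtype (median 52.4) and from 47.7 to 57.7 CPM in knockout (median 52.4). All knockout clones lay inside the wildtype range, whose lowest value was again that of 2D. The means were 52.6 CPM ± 6.41 (SD, n = 6) and 52.5 CPM ± 3.46 (n = 6), a log2 fold change of -0.002 (SE 0.08, 95% interval -0.18 to 0.17, edgeR adjusted p = 0.991). A change of Map1lc3b of more than about 1.13-fold up or to less than 0.88-fold therefore lay outside the interval. Its sign turned under other settings, with values between -0.09 and 0.04.

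Gabarapl1 ranged from 78.8 to 99.4 CPM in wildtype (median 84.9) and from 82.1 to 99.6 CPM in knockout (median 91.9). Within knockout, the clones 3G, 3H and 3I (96.8 to 99.6 CPM) were above 4J, 4K and 4L (82.1 to 87.0 CPM), although the difference between numbers 4 and 3 did not pass (log2 fold change -0.22, SE 0.07, edgeR adjusted p = 1). The log2 fold change between genotypes was 0.06 (SE 0.07, adjusted p = 0.644), with values from 0.04 without 3I to 0.11 without 2D. Gabarap (-0.06) and Gabarapl2 (0.05) were as close to 0. Map1lc3a had the largest log2 fold change of the 40 genes, 0.33, but also the lowest counts (44 to 99 per clone) and an SE of 0.21 (adjusted p = 0.365).

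Cargo receptors tie material such as ubiquitinated proteins to LC3. Of the 4 genes Nbr1, Optn, Tax1bp1 and Calcoco1, 0 passed the test by edgeR and 0 had an unadjusted p under 0.05. Tax1bp1 lay between 505 and 553 CPM in all 12 clones and had the narrowest interval of the group, -0.05 to 0.06. Nbr1 had a log2 fold change of -0.05 (SE 0.07). Optn and Calcoco1 varied more between clones. Optn was at 19.9 CPM in 2D against 37.4 to 45.9 CPM in the other wildtype clones, and Calcoco1 ran from 14.9 CPM in 2D to 29.3 CPM in 2F. Their log2 fold changes were -0.15 (SE 0.17) and -0.20 (SE 0.19). Sqstm1, which encodes the receptor p62 and is not among the 40 genes, was called higher. It ranged from 190.2 to 263.6 CPM in wildtype (median 233) and from 257 to 329 CPM in knockout (median 284), with 2F the only wildtype clone inside the knockout range. Its log2 fold change was 0.31 (SE 0.08, edgeR adjusted p = 0.0357), and the call was kept in 5 of 12 fits that left out a single clone, with adjusted p between 0.0258 and 0.0778.

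TFEB, TFE3 and MITF are related transcription factors that move to the nucleus when mTORC1 activity falls and switch on lysosomal and autophagy genes. The test called 0 of the 3 (edgeR), 0 had an unadjusted p under 0.05, and the signs were positive. Tfeb ranged from 6.73 to 9.00 CPM in wildtype (median 7.61) and from 7.98 to 10.6 CPM in knockout (median 8.29), with overlap between the genotypes. The log2 difference was 0.20 (SE 0.10, 95% interval -0.03 to 0.42, edgeR adjusted p = 0.279). Tfe3 ranged from 30.1 to 35.8 CPM in wildtype (median 32.6) and from 32.2 to 37.3 CPM in knockout (median 34.4), a log2 fold change of 0.09 (SE 0.06, edgeR adjusted p = 0.383) that was 0.05 without 2D and 3G. These values describe transcript levels and carry no information on where the proteins were in the cell. Mitf was low and variable, from 3.40 CPM in 1A to 8.26 CPM in 2E within wildtype (median 5.63) and from 4.88 to 8.98 CPM in knockout (median 7.09). Its log2 fold change was 0.24 (SE 0.22, edgeR adjusted p = 0.555), and 0.13 without clone 1A or 0.16 without 3G. MITF is also a factor of mast cells, and the summed level of 7 mast cell and basophil markers varied from 1115 to 4084 CPM in wildtype and from 2189 to 4957 CPM in knockout, with 0 of 5 tested markers called. Cpa3 made up most of this sum, while Fcer1a and Mcpt4 stayed under 1 CPM in every clone. The part of mast cell genes in the Mitf values was not tested.

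LAMP1 and LAMP2 are the abundant glycoproteins of the lysosome membrane, and a LAMP2 isoform is the receptor of chaperone-mediated autophagy. Neither gene passed the test. Lamp1 ranged from 277 to 357 CPM in wildtype (median 324) and from 325 to 384 CPM in knockout (median 347). The wildtype clones 2D, 2E and 2F were the lowest of the 12, and 1A, 1B and 1C lay among the knockout clones. The log2 fold change was 0.12 (SE 0.06, edgeR adjusted p = 0.282), and it was 0.27 for number 3 against 2 but 0.03 for 3 against 1. Without 2D and 3G, Lamp1 differed by 0.05. Within wildtype, number 2 was below number 1 by a log2 fold change of -0.24 (SE 0.06, unadjusted p = 0.00280, edgeR adjusted p = 1). Lamp2 had means of 359.5 CPM ± 37.3 (SD, n = 6) and 396 CPM ± 25.9 (n = 6) and a log2 fold change of 0.14 (SE 0.07, adjusted p = 0.247).

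Between the numbers in the clone names, edgeR called 0 of the 40 genes and 0% of all genes, both for 2 against 1 within wildtype and for 4 against 3 within knockout. At an unadjusted p under 0.05 there were 2 of the 40 in each comparison, Gabarapl1 and Lamp1 in wildtype and Atg16l1 and Gabarapl1 in knockout. Of all genes tested, 3.52% reached that level in the wildtype comparison and 2.06% in the knockout comparison. The median coefficient of variation of the 40 genes was 9.80% in wildtype and 6.70% in knockout, beside 11.4% and 8.80% over all genes tested. The spread was larger in wildtype for 30 of the 40 genes, and for 66.6% of all genes. Clone 2D was the lowest wildtype clone for 17 of the 40 genes and the highest for 7, while 2E was the highest for 13. Clone 4J was the lowest knockout clone for 13 genes and the highest for 1. These counts were not made over all genes. The 6 most variable genes in wildtype were Atg16l2, Wipi1, Mitf, Calcoco1, Map1lc3a and Optn, with coefficients from 34.8% down to 24.5%. Clones 1A and 2D were the lowest wildtype clones for Calcoco1 and Ulk1 and the highest for Atg3, Atg12, Atg5 and Atg101. They did not go together for all genes. For Gabarapl1 (78.8 and 99.4 CPM) and Tfeb (6.73 and 9.00 CPM), 1A was lowest and 2D highest in wildtype. Clones 1A and 2D also had the highest level of Elane, a primary granule gene, at 371.5 and 827 CPM, against 23.3 to 74.4 CPM in the other wildtype clones. Elane is 1 of 4 primary granule markers, whose sum ran from 9104 to 19400 CPM in wildtype, highest in 2D. The mature neutrophil marker Ltf was at 137 CPM in 2D but at 1.68 CPM in 1A, below the 3.27 CPM of 1B. The part of granulocyte genes in the levels of the autophagy genes was not tested.

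**Figure D3:**
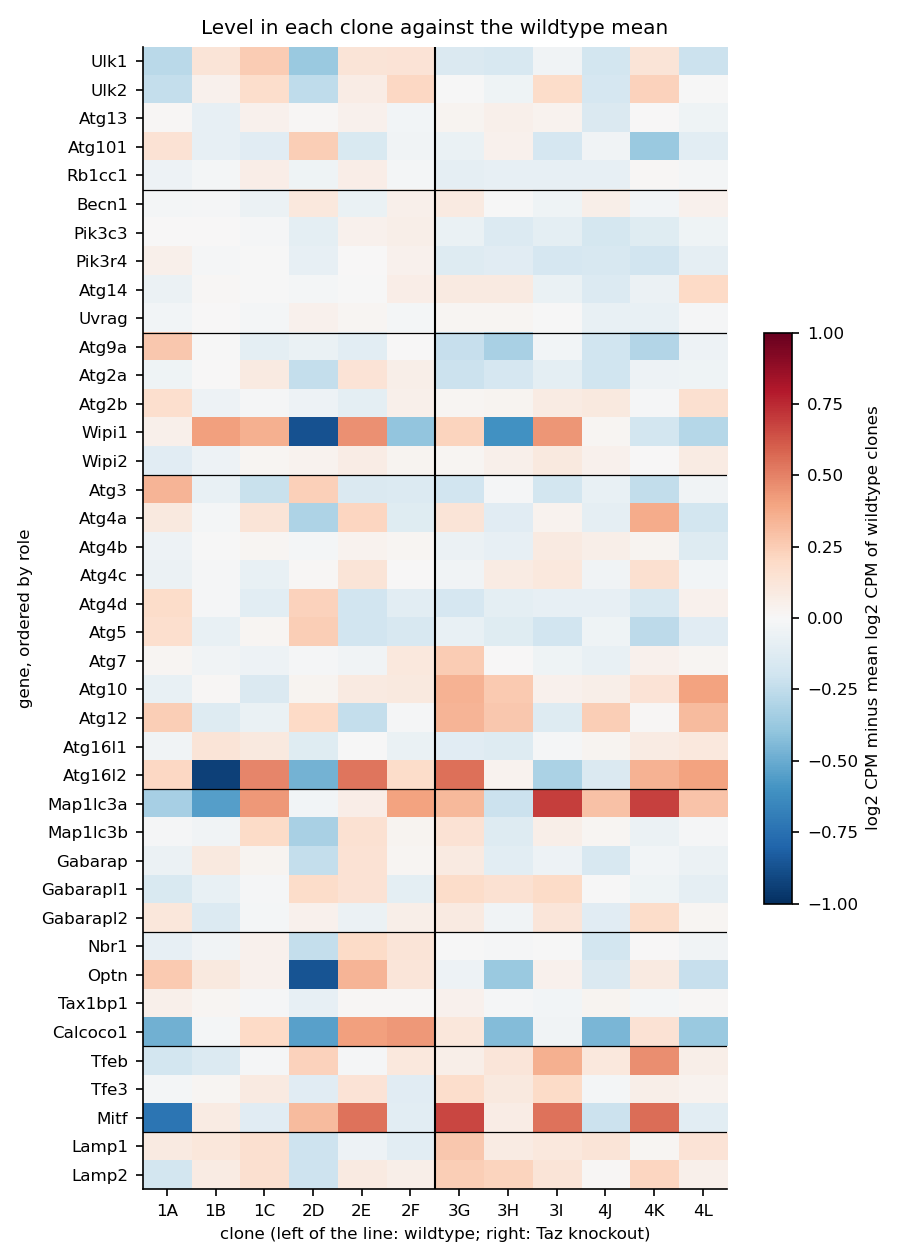
Level of each of the 40 genes (rows, ordered by role) in each clone (columns), as log2 CPM minus the mean log2 CPM of the wildtype clones. Pik3r4 is a pale blue in all 6 knockout columns, and the strongest blue cells belong to wildtype clones, 2D (Wipi1 and Optn), 1B (Atg16l2) and 1A (Mitf).

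Levels could be compared between genes after division by the length of the principal coding transcript. Tax1bp1 was highest in wildtype, at 163 CPM per kilobase, followed by Lamp1 (144), Gabarap (135) and Lamp2 (99.8). The spreads of Tax1bp1 and Lamp1 met, those of Lamp1 and Gabarap overlapped, while Lamp2 was separated from the next gene, Wipi2 (52.8 CPM per kilobase). Within the ATG8 family the order in CPM per kilobase was Gabarap (135 ± 12.1, SD, n = 6), Gabarapl1 (48.2 ± 4.66), Map1lc3b (20.8 ± 2.53), Gabarapl2 (4.33 ± 0.268) and Map1lc3a (2.41 ± 0.632), and neighbours in this order were apart by more than their spread. Within the TFEB family Tfe3 (9.97 CPM per kilobase) was above Tfeb (3.35) and Mitf (1.20). The order in knockout was the same for both families. Part of these levels depends on sequence shared with other genes, because reads that fit several places or overlap several genes were not counted. In 8 of the 40 principal transcripts, 10% or more of the 50-base stretches also occurred in another annotated gene. Among them were Atg4a with 63.6% (its pseudogene Atg4a-ps), Becn1 with 45.7% (mainly Cntd1, on the opposite strand) and Atg9a with 43.9% (Gm29253). In the ATG8 family these were Gabarapl1 with 18.6% (1700101I11Rik), Gabarapl2 with 17.0% and Map1lc3b with 13.8%, the last pair matching predicted genes. Levels of these genes may therefore be too low, and their fold changes rest on the rest of the transcript.

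**Figure D4:**
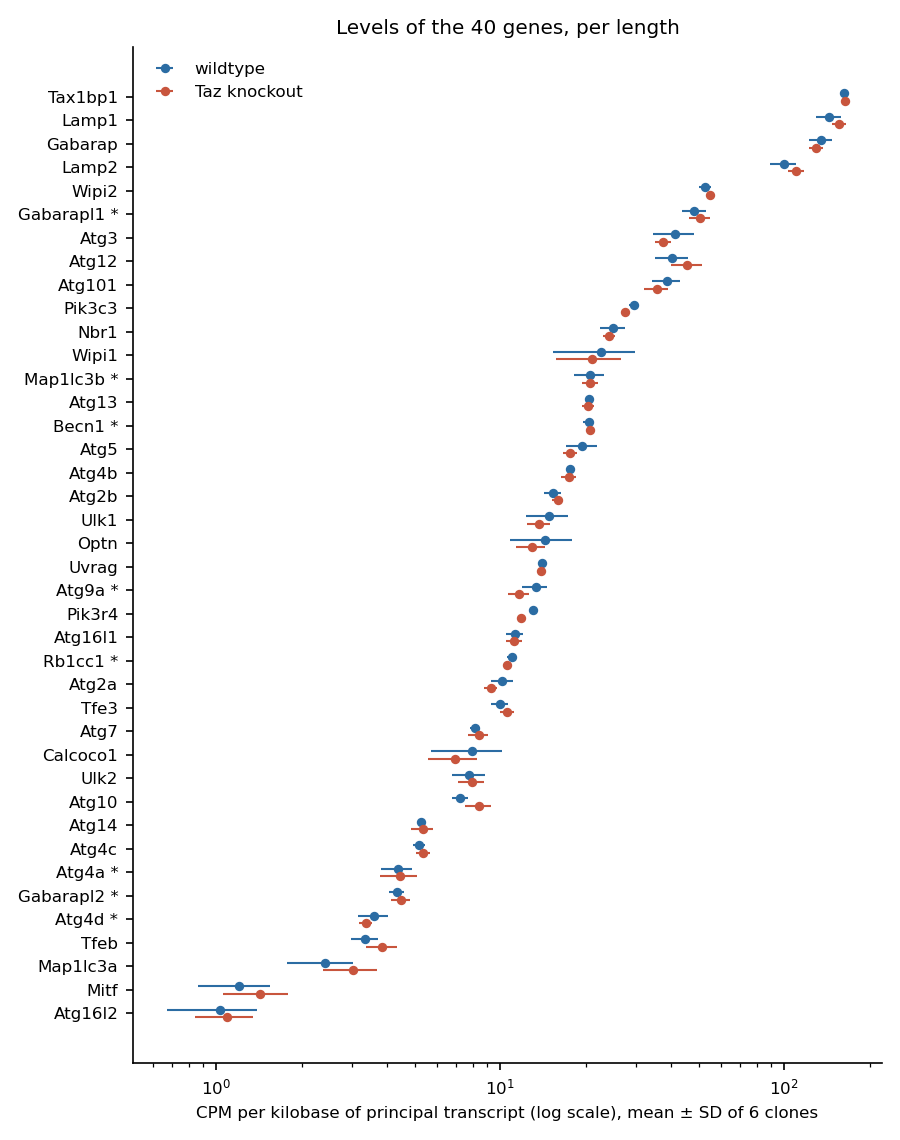
CPM per kilobase of principal transcript (log scale) of the 40 genes, mean ± SD of 6 clones per genotype, ordered by the wildtype mean; asterisks mark the 8 genes with 10% or more shared sequence. The genotypes lie beside each other along the whole range, from Tax1bp1 at 163 to Atg16l2 at 1.03 CPM per kilobase in wildtype.

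Promoter sequences show which of these genes carry the letters that the relevant factors bind. TFEB family factors bind E-boxes (CACGTG), in particular in the longer context of the CLEAR box, while ATF4 with a C/EBP partner such as CHOP binds a composite element (TGATGNAAN). The RefSeq promoter table of build GRCm38.p6, from 250 bases before to 50 after a start site, matched 34 of the 40 genes. Both strands were searched, and each CLEAR box core (TCACGTGA) contains an E-box. An E-box was found for 5 of the 34 genes (Lamp1, Atg3, Atg5, Atg7 and Atg14), which is 14.7%, beside 8.09% of all genes with a promoter in the table. The CLEAR box core was found for 1 of the 34 (Atg3), beside 1.13% of all genes, and the composite element for 0 of the 34, beside 4.50%. The following stretches are printed 5′ to 3′ on the strand of the gene, with E-boxes in capitals, because Lamp1 has 4 of them within 72 bases (chr8:13159089-13159160, plus strand), Atg3 has 2 (chr16:45158727-45158776, plus strand), and Atg5 (chr10:44268310-44268338, plus strand) and Atg7 (chr6:114670953-114670982, plus strand) have 1 each.
Lamp1: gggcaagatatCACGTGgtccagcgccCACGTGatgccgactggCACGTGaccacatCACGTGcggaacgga
Atg3: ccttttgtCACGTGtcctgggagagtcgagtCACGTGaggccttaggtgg
Atg5: gggcggagcgcttgcCACGTGgtcttggt
Atg7: atattggtggtCACGTGtgcagtaagtgaa
None of these 4 genes passed the test, and Lamp1 and Atg7 had positive and Atg3 and Atg5 negative log2 fold changes (0.12, 0.04, -0.14 and -0.14). Of the 5 stress genes, all called higher, 2 had the composite element, and Atf4, Ddit3 and Sesn2 did not. It was also found for Lamtor4, Atp6v0d1 and Cln3, none of which passed the test. The printed matches are those at the stress genes Chac1 (chr2:119351037-119351066, plus strand) and Trib3 (chr2:152344031-152344060, minus strand), both called higher in knockout, and at the cathepsin gene Ctsl (chr13:64370657-64370767, minus strand), which was called higher and also has an E-box. The element is in capitals below, on the reverse strand in all 3, together with the E-box of Ctsl.
Chac1: ccttccctgccGTTGCATCActcctgccag
Trib3: agattagctcaggTTTACATCAgccgggcg
Ctsl: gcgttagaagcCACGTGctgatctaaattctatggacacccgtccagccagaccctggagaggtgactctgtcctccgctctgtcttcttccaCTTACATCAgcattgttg
An E-box was found for 10 of the 19 lysosomal hydrolase and transport genes with a promoter (52.6%), Ctsl among them. For the V-ATPase and lysosome membrane genes it was found for 7 of 18 (38.9%), beside 8.09% of all genes. Among these 7, Atp6v1a also has the CLEAR box core and was called lower in knockout (log2 fold change -0.29). A match gives letters in a window, and its absence says only that these letters are not in that window.

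The autophagy genes stood at this level in clones whose ATF4-CHOP stress genes were raised. Trib3 rose by a log2 fold change of 2.97, Chac1 by 1.85, Sesn2 by 1.51, Ddit3, which encodes CHOP, by 1.35 and Atf4 by 0.57, all called by edgeR. Ddit3 lay at 9.67 CPM ± 1.97 (SD, n = 6) in wildtype and 24.7 CPM ± 3.16 (n = 6) in knockout. Of 11 autophagy genes known from other work to depend on ATF4 or CHOP (Sqstm1, Nbr1, Atg7, Map1lc3b, Atg12, Atg3, Becn1, Atg16l1, Gabarap, Atg10 and Atg5), Sqstm1 was called higher and 0 lower, and the median log2 fold change was -0.002. Besides Sqstm1, 1 of the 11 (Atg10) had an unadjusted p under 0.05. Over all genes, edgeR called 3.99% higher and 3.94% lower, and 23.7% had an unadjusted p under 0.05.

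Further genes of autophagy and of nutrient control were called about as often as all genes or less. Of 24 other autophagy genes, 1 was higher (Sqstm1) and 1 lower, beside 3.99% higher and 3.94% lower over all genes, with a median log2 fold change of 0.00. The lower gene was Tmem41b, which encodes a lipid scramblase of the endoplasmic reticulum needed for autophagosome formation. Tmem41b ranged from 13.7 to 16.9 CPM in wildtype (median 15.0) and from 10.4 to 13.1 CPM in knockout (median 11.7), without overlap (log2 fold change -0.37, SE 0.08, edgeR adjusted p = 0.0155). Of 22 tested genes of mTORC1 and its Rag and AMPK partners, which control ULK1 and TFEB, 0 were higher and 1 lower. This was Lamtor5, a subunit of the Ragulator complex on lysosomes, at 27.6 to 29.9 CPM in wildtype and 23.9 to 27.1 CPM in knockout, without overlap (log2 fold change -0.20, SE 0.05, edgeR adjusted p = 0.0239). It lost its call in 5 of the 12 fits without a single clone (adjusted p up to 0.0575).

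Lysosomal hydrolases and their transport factors included a called cathepsin gene in each direction. Of 24 tested genes, 1 was higher (Ctsl) and 1 lower (Ctsz), close to the shares of all genes (3.99% and 3.94%). A positive sign was found for 19 (79.2%), beside 48.3% of all genes, and the median log2 fold change was 0.17, beside -0.007 over all genes. Ctsl, the gene of the lysosomal protease cathepsin L, ranged from 17.7 to 29.8 CPM in wildtype (median 24.2) and from 34.1 to 58.3 CPM in knockout (median 47.7). All 6 knockout clones were above all wildtype clones (log2 fold change 0.93, SE 0.15, edgeR adjusted p = 0.00459). Ctsz, which encodes cathepsin Z, ranged from 166 to 213 CPM in wildtype (median 189.6) and from 67.7 to 139 CPM in knockout (median 123), with the lowest value in 3H. The groups did not overlap (log2 fold change -0.69, SE 0.15, adjusted p = 0.0147). Ctsd, the most abundant of these hydrolase genes in CPM, stood at 965.5 CPM ± 203.9 (SD, n = 6) and 1175 CPM ± 186 (n = 6), a log2 fold change of 0.28 (adjusted p = 0.265). Of 22 tested genes of the V-ATPase and the lysosome membrane, 0 were higher and 1 lower, the V-ATPase subunit gene Atp6v1a (log2 fold change -0.29, SE 0.07, adjusted p = 0.0266), which lost its call in 4 of the 12 fits without a single clone (adjusted p up to 0.0639). The median of this list was -0.02. With the clones of each number summed (2 against 2), Ctsl (edgeR adjusted p = 0.0924), Ctsz (0.0814), Atp6v1a (0.0810), Tmem41b (0.0957), Lamtor5 (0.125) and Sqstm1 (0.0749) all lost their calls. Sgsh, the gene of a lysosomal sulfatase, had a log2 fold change of 0.95 with a wide error (SE 0.52, edgeR adjusted p = 0.300) and ran from 1.34 to 13.1 CPM within wildtype.

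**Figure D5:**
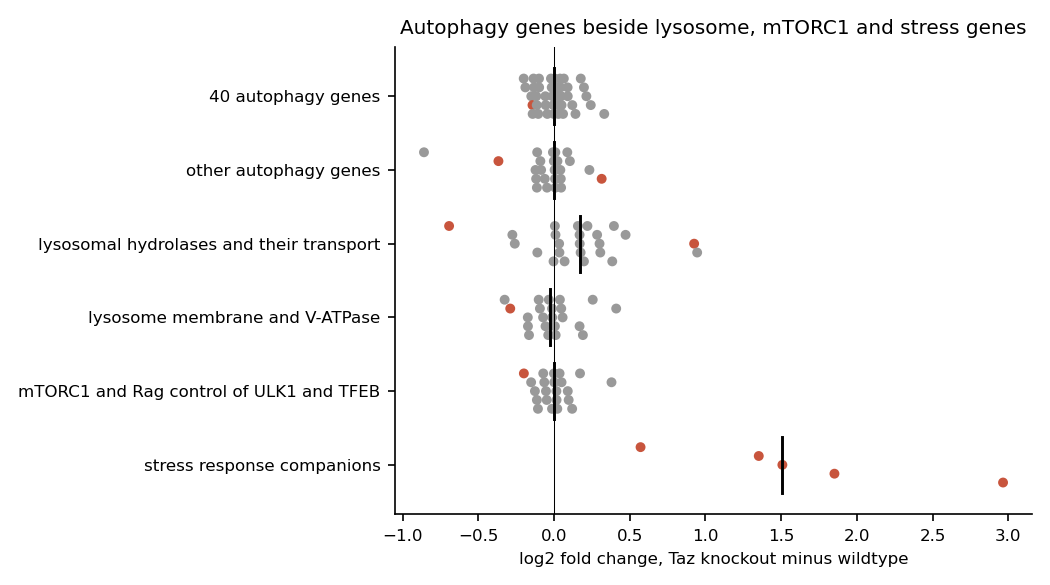
Log2 fold change (knockout minus wildtype, x axis) of each tested gene of the 40 autophagy genes and of 5 companion lists (rows), called genes in red, black bars at the medians. The autophagy genes lie between -0.20 and 0.33, and the 5 stress genes between 0.57 and 2.97.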

How the data were processed

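RNA-seq reads had been aligned with STAR and counted per Ensembl gene with HTSeq against mm9, per the submitters' processing notes, which also name edgeR and give no versions. The deposited values were raw counts, 1 file per clone, counted without strand per the file names, so genes that overlap on opposite strands cannot be separated. The annotation release behind them is not given in the sources used here. The 5 HTSeq total lines were left out, and reads aligned to several places made up 43.6% of all records on average. Symbols for 32860 of 37583 identifiers, transcript lengths and shared sequence came from GENCODE M21 (GRCm38), and promoters from RefSeq. The companion gene Tmem55b found no match and was not analysed here.

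The main test was edgeR 4.0.16 (R 4.3.3): quasi-likelihood F-test, TMM scaling, filterByExpr by genotype, Benjamini-Hochberg adjustment over all 11819 genes tested, called at an adjusted p under 0.05. Standard errors are the absolute log2 fold change over the square root of F, and intervals use the test's degrees of freedom. Numbers in the clone names were compared in a model of 4 groups of 3 clones. Alternatives were DESeq2 1.42.0, limma 3.58.1 (voom), other scalings and filters, summed clones and fits without single clones. The tests were tried on simulated counts with known changes.

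The genes and lists were chosen with earlier results of these data known. Full values are given for genes called or with an unadjusted p under 0.05, and for Ulk1, Becn1, Atg5, Atg7, Map1lc3b, Gabarapl1, Tfeb, Tfe3, Mitf and Lamp1 whatever their result. From each companion list up to 4 called genes were named, plus Sqstm1, Taz and Ddit3. Ctsd, Sgsh, the other stress genes and further members were named after their values were seen. A count of 3, the limit that a count of 0 allows, is between 0.109 and 0.158 CPM and covers counting error only. No 2 libraries held identical counts (0 pairs).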

Additional observations from a re-analysis of the deposited data

Results flagged for a closer look

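In 4 of 80 sets of 6 clones (40 genes in 2 genotypes) the highest or lowest clone lay unusually far from its nearest neighbour for the group's range (Dixon's test at 95%). Chance flags about 1 in 20 such sets. Atg9a was at 65.6 CPM in wildtype clone 1A, with the next clone at 54.7 CPM. Optn was at 19.9 CPM in wildtype clone 2D, with the next at 37.4 CPM. Atg7 was at 36.7 CPM in knockout clone 3G, with the next at 31.6 CPM. Nbr1 was at 105 CPM in knockout clone 4J, with the next at 116 CPM.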

How the results depend on the processing

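The count of autophagy genes called higher was 0 in the main test and in all alternatives but limma's voom with the clone number as a correlated block, where it was 1 (Atg10). The correlation estimated for that block was -0.169, so it makes no allowance for clones of a number being alike, and the same fit called 19.4% of all genes. The count called lower was 1 in the main test, 2 with DESeq2 (Pik3c3 and Pik3r4), 3 with the correlated block (Atg9a, Pik3c3 and Pik3r4), and 0 without a filter on low counts, with counts summed by clone number, and when a call in all 4 pairs of numbers was required. Without single clones it ran from 0 (without 4K) to 3 (without 2D: Atg2a, Pik3c3 and Pik3r4), and the count called higher from 0 to 0. Without both 2D and 3G, an alternative added after the data were seen, 2 were lower and 0 higher. Of all genes, DESeq2 called 13.7%, the fit without a filter 2.44%, summing clones 1.99% and the 4 pairs 0.203%. The fits without 4K, without 2D and without both 2D and 3G called 5.93%, 8.56% and 6.29% of all genes. The log2 fold change of Pik3r4 stayed between -0.16 and -0.13 in 22 alternatives and kept its call in 18. Signs turned for genes near 0: Atg7 (-0.007 without 3G and up to 0.065 without other single clones, -0.009 without 2D and 3G) and Map1lc3b (0.004 with voom and with its block, 0.001 with summed counts, and up to 0.04 in 6 fits without a single clone, between -0.058 and 0.04 over all 12). The cause was not tested. Scaling moved the median of all genes by under 0.01. No paired analysis was possible because the genotypes share no number in their labels. Counts were lowest for Map1lc3a, from 44 in a clone, which limits its precision.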
